A study of Drosophila melanogaster with 15 samples.

Results

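The segment polarity genes wg, hh, ptc, ci, en, inv, gsb and nkd were examined for R-loops in the peak lists of 14–16 h embryos, 2–3 h embryos and S2 cells. A peak was taken as one of theirs if it shared at least 1 bp with the gene or with the 5 kb on either side of it, on either strand. These 8 genes, of 17796 annotated on the 7 chromosomes and arms that carry peaks, held 50 of the 28961 peaks of 14–16 h embryos, 52 of the 22581 peaks of 2–3 h embryos and 49 of the 28464 peaks of S2 cells. Joined across the lists wherever peaks of the same strand shared at least 1 bp, the 151 peaks formed 91 regions, of 51900 in the whole series.

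An R-loop is a stretch of RNA paired with 1 strand of the DNA, with the other strand displaced. It was mapped by ssDRIP-seq, in which hybrids are recovered from fragmented genomic DNA with the S9.6 antibody and sequenced so that the strand is kept. The 14–16 h and 2–3 h embryos were whole Oregon R embryos collected from population cages, and S2 is a Drosophila cell line derived from late embryos. Each type had 2 ssDRIP samples, 2 inputs and 1 sample treated with RNase H1, which removes the RNA of a hybrid, and no genotype or drug was compared. Peaks were called on both ssDRIP samples together, so each type has 1 list, without height, score or depth. No value below therefore has a replicate error and none is tested: a peak listed in 1 type and not in another is a difference between lists, and how many reads lay behind it is unknown. In whole embryos a hybrid present in few cells cannot be told apart from one rare in all cells.

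Segment polarity genes set up the front and back of each segment of the embryo. Cells that express the homeodomain factors Engrailed (en) and Invected (inv) secrete Hedgehog (hh). Their anterior neighbours receive it through Patched (ptc) and the transcription factor Cubitus interruptus (ci) and secrete the Wnt ligand Wingless (wg), which in turn maintains en. Gooseberry (gsb), a Pax-family factor, acts with wg, and Naked cuticle (nkd) dampens Wingless signalling inside the receiving cell. Several of these genes, en, inv, hh and wg among them, are classical targets of Polycomb repression outside their stripes.

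Of the 17 regions with a peak in all 3 lists 13 were centred in introns. Introns make up 50.9% of the bases searched, flanks included, and 74.9% of the bases of the 8 genes alone. In 15 of these regions every peak, over the 3 lists, had a stretch of bases in common. An other-strand region in intron 2 of hh is not among the 15, because its 4 peaks together share no base. Its S2 peak of 286 bp nevertheless lay within a peak of each embryo list. Of the 15, 6, at wg, hh, ci and nkd, are given below, in dm6, read 5′ to 3′ on the strand of the peak. They are shown as examples of sequence called in every sample type. The others, among them 2 more on the opposite strand in intron 1 of nkd and those at ptc, are not shown. None of the 6 touches an untranslated region, and the middle 300 bases are given where more were shared. Capitals mark runs of at least 8 A or of at least 15 purines (A or G), the kinds of tract counted further on. The wg stretch lies in intron 1 at chr2L:7307789-7308088, forward strand. The first hh stretch lies in intron 2 at chr3R:23132092-23132391 and the other in intron 1 at chr3R:23135060-23135343, both on the reverse strand. The ci stretch lies in intron 1 at chr4:54037-54278, reverse strand. At nkd, intron 1 held a stretch on the strand opposite to the gene at chr3L:19024139-19024438, forward strand, and one on the gene's strand at chr3L:19024355-19024567, reverse strand, which overlap. The nkd stretch on the gene's strand is the only one of these 6 without a capital run.
wg intron 1: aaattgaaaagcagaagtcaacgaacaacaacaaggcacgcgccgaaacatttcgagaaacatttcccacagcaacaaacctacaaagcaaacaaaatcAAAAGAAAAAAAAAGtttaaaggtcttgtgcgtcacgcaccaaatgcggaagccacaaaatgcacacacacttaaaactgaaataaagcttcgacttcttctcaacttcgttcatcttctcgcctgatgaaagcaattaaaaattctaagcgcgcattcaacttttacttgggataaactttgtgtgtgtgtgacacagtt
hh intron 2: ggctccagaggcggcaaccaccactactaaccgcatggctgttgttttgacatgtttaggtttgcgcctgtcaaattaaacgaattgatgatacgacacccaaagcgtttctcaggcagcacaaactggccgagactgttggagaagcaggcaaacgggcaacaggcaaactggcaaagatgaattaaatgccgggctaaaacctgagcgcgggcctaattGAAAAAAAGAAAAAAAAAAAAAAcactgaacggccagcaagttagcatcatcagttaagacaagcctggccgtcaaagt
hh intron 1: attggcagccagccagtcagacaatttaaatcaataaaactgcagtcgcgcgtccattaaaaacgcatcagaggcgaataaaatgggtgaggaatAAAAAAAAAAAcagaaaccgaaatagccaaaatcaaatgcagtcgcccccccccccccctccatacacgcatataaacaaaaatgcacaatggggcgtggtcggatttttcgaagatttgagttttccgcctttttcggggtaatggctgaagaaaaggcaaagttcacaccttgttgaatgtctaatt
ci intron 1: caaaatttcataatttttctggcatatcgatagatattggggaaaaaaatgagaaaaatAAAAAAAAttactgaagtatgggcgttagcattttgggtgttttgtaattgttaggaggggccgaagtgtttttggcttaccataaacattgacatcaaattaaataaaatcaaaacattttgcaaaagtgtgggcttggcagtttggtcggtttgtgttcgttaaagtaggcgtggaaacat
nkd intron 1, opposite strand: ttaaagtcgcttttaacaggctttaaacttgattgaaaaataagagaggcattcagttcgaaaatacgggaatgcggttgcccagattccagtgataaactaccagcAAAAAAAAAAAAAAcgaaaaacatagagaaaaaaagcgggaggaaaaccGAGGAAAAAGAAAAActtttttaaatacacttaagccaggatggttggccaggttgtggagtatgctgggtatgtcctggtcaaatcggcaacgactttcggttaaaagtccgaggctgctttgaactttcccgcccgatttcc
nkd intron 1, gene's strand: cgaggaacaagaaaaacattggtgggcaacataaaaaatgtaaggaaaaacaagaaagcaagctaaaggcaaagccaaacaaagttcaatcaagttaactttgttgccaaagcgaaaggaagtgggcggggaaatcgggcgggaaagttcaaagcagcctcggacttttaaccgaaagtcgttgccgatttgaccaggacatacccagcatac

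Peaks that the lists give on the strand of the gene, called own-strand here, made up 31 of the 50 member peaks in 14–16 h embryos, 32 of 52 in 2–3 h embryos and 33 of 49 in S2 cells, or 62%, 61.5% and 67.3%. In every list 7 of the 8 genes had an own-strand peak inside the gene, and gsb was the gene without one. Among all 17796 genes, 21.8% had one in 14–16 h embryos, 23.4% in 2–3 h embryos and 26.9% in S2 cells. Long genes are hit more often, and among the 6087 genes of at least 2680 bp, the length of gsb, the shares were 46.9%, 47.7% and 50.6%. The same 7 genes had an own-strand peak in all 3 lists, against 29.0% of those 6087 genes. The 6087 genes were not matched in length to these 7, which span 4205 to 41709 bp. A peak on the opposite strand, called other-strand, lay inside 5 members in 14–16 h embryos, where 43.7% of the long genes had one, inside 5 in 2–3 h embryos (38.5%) and inside 4 in S2 cells (40.6%). With 8 genes chosen by name, these counts describe the genes and are not a test.

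The share of the gene covered by own-strand peaks had a median over the 8 genes of 7.70% in 14–16 h embryos, 9.71% in 2–3 h embryos and 7.38% in S2 cells. The median over the long genes was 0%, 0% and 0.863%. Summed over all members, own-strand peaks covered 7.47%, 9.44% and 7.31% of the 131577 bp of gene, and other-strand peaks 5%, 7.43% and 4.22%. For the long genes summed, own-strand peaks covered 5.55%, 4.57% and 5.64%. Both totals of the members were highest in 2–3 h embryos, but the genes within them differed: own-strand coverage of wg, hh and ci was highest in 14–16 h embryos, that of ptc and nkd in 2–3 h embryos, and that of en and inv in S2 cells.

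**Figure D1:**
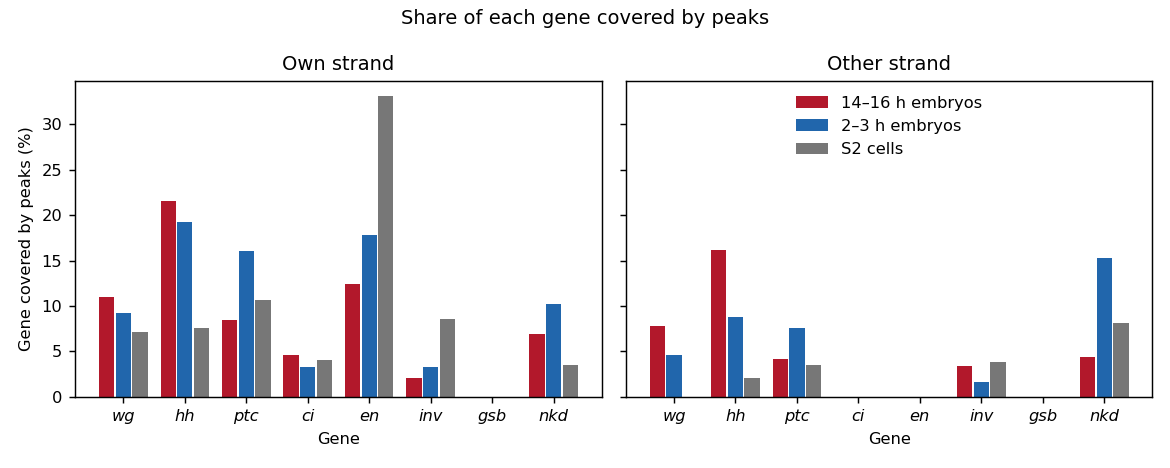
Percent of each gene covered by peaks on its own strand (left) and on the other strand (right), with 1 bar for each peak list and no error bars because replicates are pooled. On the own strand hh reaches 21.5% in 14–16 h embryos and en 33.1% in S2 cells, and gsb is at 0 throughout.

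Wingless, the Wnt ligand (wg, chromosome 2L, 7307159 to 7316265, forward strand), had 5 peaks in 14–16 h embryos, 3 in 2–3 h embryos and 4 in S2 cells. An own-strand peak early in intron 1 was called in every list, 397, 633 and 479 bp wide. It began 582 bp after the start site in 14–16 h embryos, 442 bp in 2–3 h embryos and 569 bp in S2 cells, so only that of 2–3 h embryos fell within 500 bp of the start, and the 3 are otherwise the same region. A second own-strand region lay across the 3′ end in all 3 lists, with peaks of 236, 477 and 266 bp. Between them, intron 2 held an other-strand peak of 712 bp in 14–16 h embryos and of 417 bp in 2–3 h embryos and none in S2 cells. Own-strand coverage was 11%, 9.23% and 7.15%. None of the 12 wg peaks met a peak on the other strand.

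Hedgehog, the other ligand (hh, chromosome 3R, 23128169 to 23141906, reverse strand), had 14 peaks in 14–16 h embryos, 9 in 2–3 h embryos and 6 in S2 cells. Own-strand coverage was 21.5%, 19.2% and 7.61%, and 98.4% of the long genes had less in 14–16 h embryos, 96.5% in 2–3 h embryos and 75.2% in S2 cells. S2 cells thus had the least coverage of hh, while on the whole chromosome arm their list is the densest, with 194 peaks per Mb in 14–16 h embryos, 159 in 2–3 h embryos and 248 in S2 cells. The S2 peaks were a subset by position: each of the 6 lay in a region that 2–3 h embryos also had, and the 5 regions found in a single list were all of 14–16 h embryos.

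A peak in the first exon of hh was called in every list. It began 56 bp after the start site and was 538 bp wide in 14–16 h embryos, began at 75 bp and was 531 bp wide in 2–3 h embryos, and began at 169 bp and was 262 bp wide in S2 cells. Own-strand peaks in intron 1 near 6.7 kb and in intron 2 near 9.7 kb were also common to the 3 lists, and those near 4.2 kb and 10.8 kb to both embryo lists. The other strand differed more, with 6 peaks (1 of them, 258 bp, in the first coding exon) in 14–16 h embryos, 2 in 2–3 h embryos and 1 in S2 cells. In 14–16 h embryos 13 of the 14 peaks shared bases with a peak on the other strand, in 7 pairs that overlapped by 178 to 584 bp. In 2–3 h embryos 5 of 9 did, and in S2 cells 0 of 6. Outside the gene, an own-strand region lay upstream in all 3 lists, with peaks ending 1826 bp short of the start in 14–16 h embryos, 2059 bp in 2–3 h embryos and 2541 bp in S2 cells, faced by an other-strand peak of 1120 bp in 14–16 h embryos and of 875 bp in 2–3 h embryos. In that own-strand upstream region the 14–16 h and S2 peaks shared no base and were joined only through the 2–3 h peak. Downstream, an own-strand peak was 958 bp wide in 2–3 h embryos and 555 bp in S2 cells and was missing in 14–16 h embryos. The flanks of hh reach 3 other annotated genes, those of ptc 2, of ci 4 and of nkd 3, so a flank peak need not belong to the member.

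Patched, the Hedgehog receptor (ptc, chromosome 2R, 8649649 to 8665223, forward strand), had 7 peaks in 14–16 h embryos, 10 in 2–3 h embryos and 8 in S2 cells, with own-strand coverage of 8.46%, 16.1% and 10.6%. Intron 1 held the regions of all 3 lists, own-strand ones near 5.0, 8.6 and 10 kb and an other-strand one near 8.0 kb. At the start of the gene the lists parted. An own-strand peak in the 5′ untranslated exon was 558 bp wide in 2–3 h embryos and 314 bp in S2 cells and was missing in 14–16 h embryos. An own-strand peak upstream of the start, ending 389 bp short of it in 14–16 h embryos and 481 bp short in 2–3 h embryos, was missing in S2 cells. Only the 2–3 h list held both of these peaks. The S2 peaks upstream of ptc lay farther out, an own-strand one ending 2587 bp and an other-strand one ending 1917 bp short of the start.

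Cubitus interruptus, the factor that carries the Hedgehog signal to its targets (ci, chromosome 4, 47710 to 57041, reverse strand), had 1 peak inside the gene in every list and none on the other strand. It is the intron 1 region printed above, 432 bp wide in 14–16 h embryos, 301 bp in 2–3 h embryos and 375 bp in S2 cells, and covered 4.63%, 3.23% and 4.02% of ci. The one other ci peak, 238 bp, lay across the edge of the upstream flank in 14–16 h embryos. Chromosome 4 carried few peaks, 122, 88.3 and 50.4 per Mb.

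**Figure D2:**
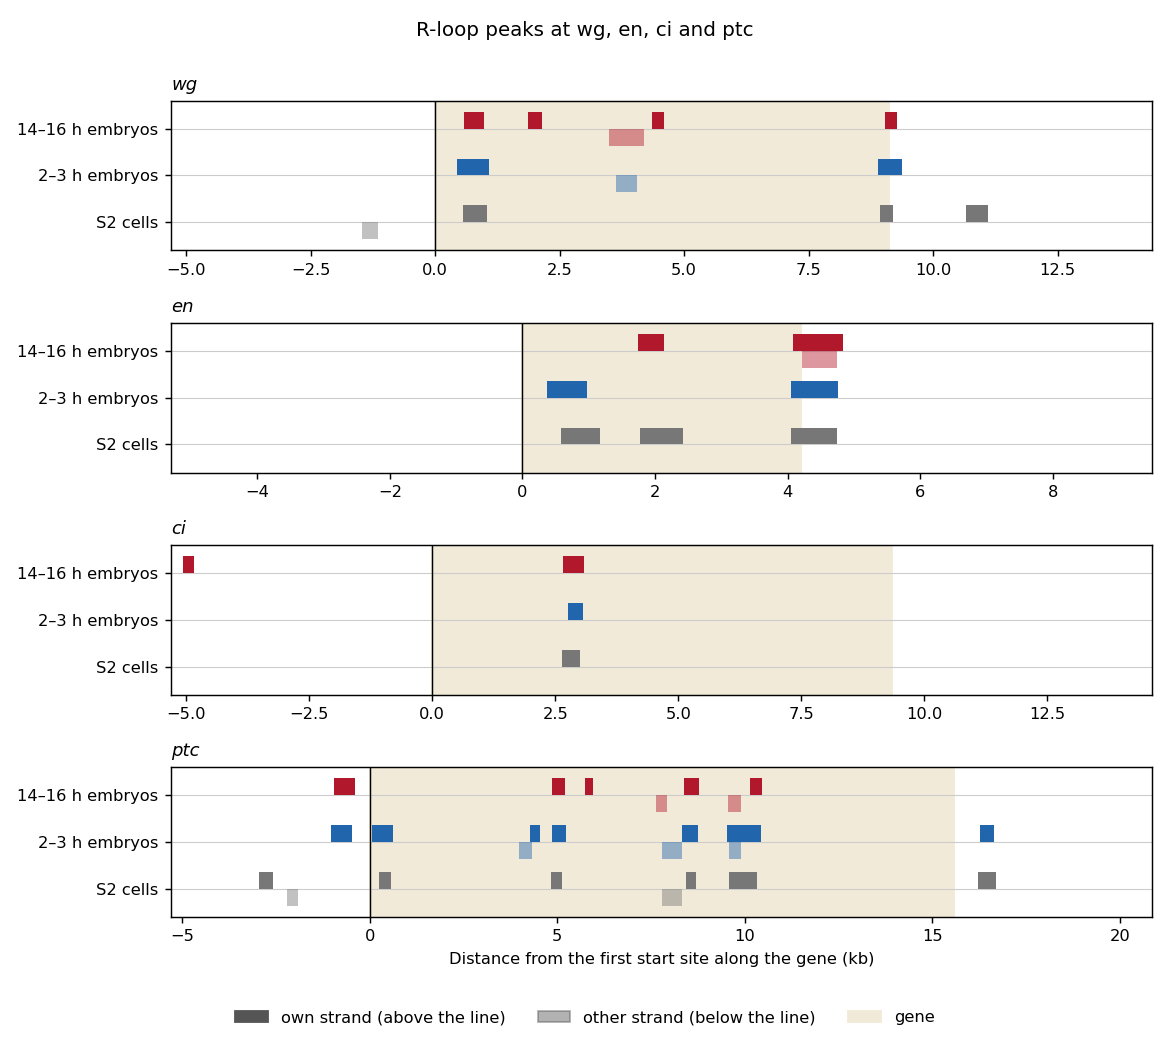
Peaks along wg, en, ci and ptc by sample type, with distance from the first start site of the gene in kb on the horizontal axis. Blocks above each line are own-strand peaks and paler blocks below it other-strand peaks, and the shaded span is the gene. The peak after the wg start, the peak across the en end and the ci intron 1 peak recur in all 3 lists.

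Engrailed and its paralogue Invected (en, chromosome 2R, 11524006 to 11528210, reverse strand, and inv, 11474465 to 11509695, forward strand) are neighbours whose 3′ ends face each other. Engrailed had 3 peaks in 14–16 h embryos, 2 in 2–3 h embryos and 3 in S2 cells. A peak across its 3′ end, 760, 701 and 693 bp wide, was in all 3 lists, and in 14–16 h embryos it had an other-strand partner of 543 bp, which began 6 bp beyond the gene. A peak in the first coding exon was 602 bp wide in 2–3 h embryos and 592 bp in S2 cells and was missing in 14–16 h embryos. It was rich in G and C, 56.8% in 2–3 h embryos and 62.5% in S2 cells. A peak in intron 1, of 398 and 647 bp, was in the lists of 14–16 h embryos and S2 cells and not in that of 2–3 h embryos. Own-strand coverage of en was 12.4%, 17.8% and 33.1%, and only the S2 list had all 3 positions.

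Invected was the member with the most peaks that belonged to 1 type. It had 5 peaks in 14–16 h embryos, 5 in 2–3 h embryos and 15 in S2 cells, and own-strand coverage of 2.02%, 3.23% and 8.60%. Of its 22 regions 14 were found in S2 cells only, 3 in 14–16 h embryos only and 2 in 2–3 h embryos only, and 0 were found in all 3 lists. The S2 peaks ran through the long intron 1, with own-strand peaks centred between 10271 and 23982 bp from the first start site, where neither embryo list had an own-strand peak. The arm is also denser in the S2 list, with 239 peaks per Mb, against 176 in 14–16 h and 158 in 2–3 h embryos. The part of arm density in the S2 peaks of inv was not tested. As at en, a peak in the first coding exon, with 57.3% G and C in 2–3 h embryos and 59.2% in S2 cells, was called in those 2 lists (461 and 488 bp) and not in 14–16 h embryos. Both embryo lists shared an own-strand region near 8.4 kb in intron 1 and an other-strand region near 32.1 kb. In exons, 14–16 h embryos also had an own-strand peak of 267 bp in the 3′ untranslated region, 2–3 h embryos an other-strand peak of 246 bp in the 5′ untranslated region and S2 cells an other-strand peak of 450 bp in the 3′ untranslated region, each in 1 list only.

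Gooseberry (gsb, chromosome 2R, 25061964 to 25064643, forward strand) had no peak in the gene or its 5 kb flanks in any list. The nearest own-strand peak was 15306 bp away in 14–16 h embryos, 35731 bp in 2–3 h embryos and 18544 bp in S2 cells. The nearest other-strand peaks, 15401, 15500 and 15991 bp away, lay inside the neighbouring Pax gene gsb-n, on that gene's own strand. At 2680 bp gsb is the shortest of the 8 genes.

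Naked cuticle, the inhibitor (nkd, chromosome 3L, 19003741 to 19045449, reverse strand), is the longest member and had the most peaks: 14 in 14–16 h embryos, 22 in 2–3 h embryos and 12 in S2 cells. Own-strand coverage was 6.94%, 10.2% and 3.55%, and other-strand coverage 4.34%, 15.3% and 8.11%. In 2–3 h embryos 98.2% of the long genes had fewer other-strand peaks than the 11 inside nkd. This count was not corrected for the 41709 bp length of nkd. A peak spanned the start site in both embryo ages and not in S2 cells. It began 286 bp upstream and was 914 bp wide in 14–16 h embryos, and began 133 bp upstream and was 771 bp wide in 2–3 h embryos. The nearest own-strand peak upstream in S2 cells ended 4388 bp short of the start.

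All other nkd peaks within the gene lay in intron 1. Of the 29 nkd regions, 4 were in all 3 lists, and 3 of these 4 were on the other strand, near 6.8, 14.9 and 21.2 kb. The last was the widest member peak of all, 1459 bp in 2–3 h embryos, against 489 bp in 14–16 h embryos and 787 bp in S2 cells. The 2–3 h list added 9 regions of its own, while 14–16 h embryos and S2 cells added 3 each. On arm 3L the S2 list is thin, with 150 peaks per Mb, against 202 in 14–16 h and 167 in 2–3 h embryos. The part of copy number or of depth per arm in the hh, inv and nkd differences was not tested.

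**Figure D3:**
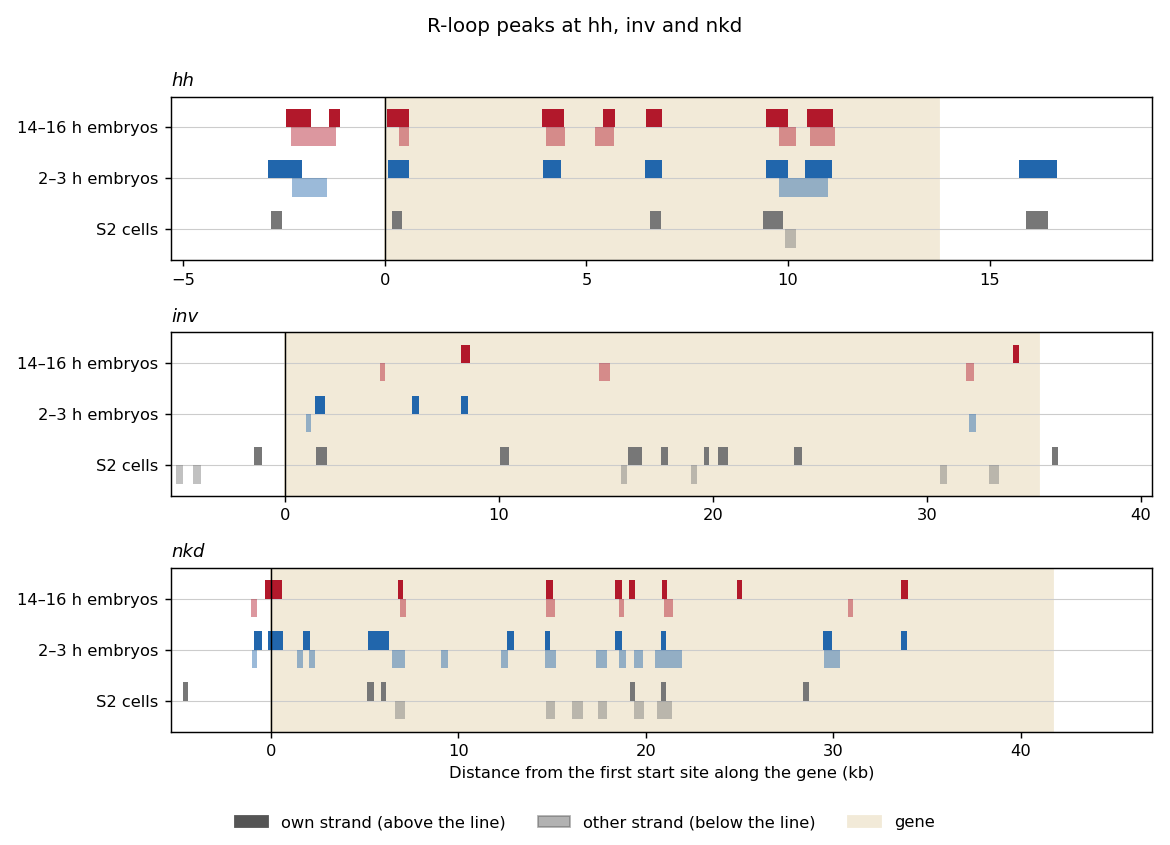
Peaks along hh, inv and nkd by sample type, drawn as for the shorter genes, with distance from the first start site in kb. The hh blocks of 14–16 h embryos lie in pairs above and below the line, the S2 row of inv is filled between 10 and 24 kb, and the block over the nkd start is in both embryo rows only.

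Read across the genes, an own-strand peak within 500 bp of an annotated start site was present at 3 members in 14–16 h embryos (hh, ptc and nkd), at 6 in 2–3 h embryos (wg, hh, ptc, en, inv and nkd) and at 4 in S2 cells (hh, ptc, en and inv). Among the long genes the shares were 20.4%, 18.8% and 20.9%. In 14–16 h embryos the ptc peak was the upstream one, and en and inv each have 2 start sites, of which the nearer was used. Only hh had a peak within that distance inside its start site in all 3 lists. An own-strand peak within 500 bp of an end site was present at 2 members in every list, wg and en each time, where the long genes had 19.6% in 14–16 h embryos, 15.4% in 2–3 h embryos and 15.9% in S2 cells.

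With peaks joined at 1 shared bp, the lists shared more of these regions than of all regions. All 3 types had a peak in 17 of the 91 regions, or 18.7%, against 13.0% in the whole series. Only 11 such regions, 10.9%, remained when peaks were joined at 50% reciprocal overlap. When only peaks wider than the median of their list were kept, 5 remained, also 10.9%. Whole-series shares under these rules are not given here, so whether the members exceed the series under them is not shown. Exactly 1 type had a peak in 50 of the 91 regions, or 54.9%, against 60.3%. The 17 were made up of 5 at hh, 4 each at ptc and nkd, 2 at wg and 1 each at ci and en. Own-strand regions were common to the 3 lists in 12 of 55 cases, or 21.8%, and other-strand regions in 5 of 36, or 13.9%. S2 cells alone had 21 regions, of which 14 were at inv. These 21 were 23.1% of the member regions, below the 27.5% of the whole series. Without inv the S2-only share was 10.1% of 69 regions and the share in all 3 lists 24.6%.

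**Figure D4:**
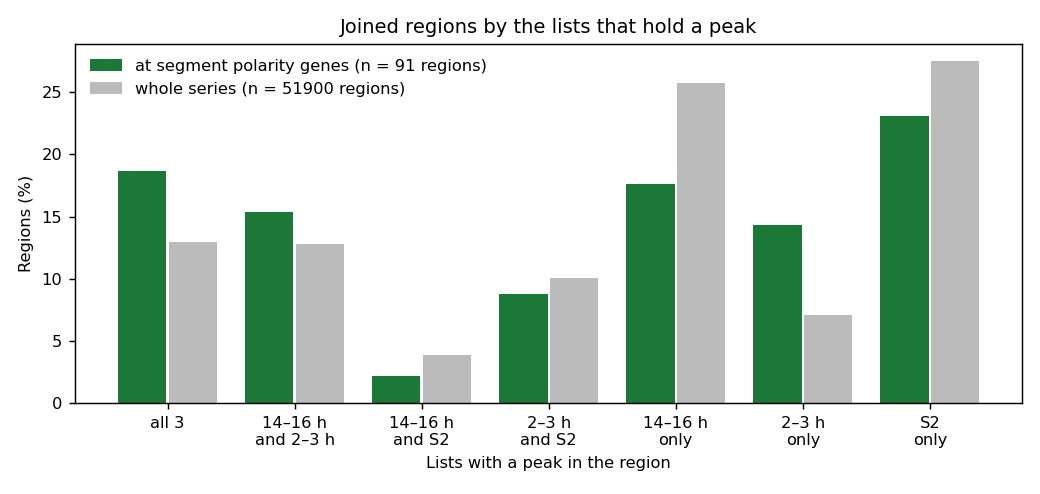
Percent of joined regions by the lists that hold a peak in them, for the 91 regions at segment polarity genes and the 51900 of the whole series. Regions of all 3 lists, of both embryo ages and of 2–3 h embryos only have the taller member bars, and those of 14–16 h embryos only or S2 cells only the lower ones.

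Counted list by list, the widest gap to the whole list was that of 14–16 h peaks with 2–3 h peaks. A 2–3 h peak on the same strand met 64.0% of the 50 member peaks of 14–16 h embryos, against 46.6% of that whole list, and an S2 peak met 36% of them, against 30.3%. Among the 52 member peaks of 2–3 h embryos, 59.6% were met by a 14–16 h peak (whole list 59.7%) and 48.1% by an S2 peak (53.9%). Among the 49 member peaks of S2 cells, 36.7% were met by a 14–16 h peak (30.6%) and 53.1% by a 2–3 h peak (42.6%).

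Most member peaks were centred in introns, 76.0% in 14–16 h embryos, 73.1% in 2–3 h embryos and 63.3% in S2 cells, against 55.7%, 49.0% and 46.7% of the whole lists. Introns make up 74.9% of the bases of the 8 genes and 50.9% of the bases once the flanks are added. A peak was a little narrower than its list's median in 14–16 h embryos, with a median of 376 bp against 387 bp, and in S2 cells, 354 bp against 400 bp. In 2–3 h embryos it was wider, 449 bp against 391 bp. The median G and C content was 42.7%, 43.8% and 44.5%, above the 39.3%, 41.8% and 43.3% of the lists.

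Member peaks held runs of at least 8 A as often as the whole lists or somewhat more often, while for purine tracts the direction varied by list. On the strand of the peak, a run of at least 8 A was in 74.0% of member peaks in 14–16 h embryos, 57.7% in 2–3 h embryos and 38.8% in S2 cells, against 68.8%, 57.0% and 33.9% of the lists. The order of the lists was the same among the members as overall. By gene, a run was in 4 of 4 ci peaks and 11 of 12 wg peaks, and in 6 of 25 inv peaks. Of the 15 stretches shared by every peak of a region of all 3 lists, 14 held such a run, or 93.3%. In the whole series 77.0% of 6166 such stretches did. Regions whose peaks did not all share a base, 2 at the members and 570 in the whole series, are left out of these shares. The other-strand hh region in intron 2 is 1 of the 2, and its S2 peak, within a peak of each embryo list, held a run of 14 A. How many of the 570 likewise had bases common to the 3 lists was not counted. With runs of at least 10 A, the members fell below their list in 2–3 h embryos, 40.4% against 45.5%. They stayed above it in 14–16 h embryos, 58% against 54.6%, and in S2 cells, 28.6% against 23.3%. A run of at least 15 purines was in 28.0%, 38.5% and 42.9% of member peaks, against 36.4%, 40.8% and 35.0%. At this length the members were below the list in both embryo ages and above it in S2 cells. With runs of at least 12 or 20 purines, only the members in 14–16 h embryos stayed on the same side of their list.

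Peaks that share bases with a peak on the other strand made up 46.0% of the member peaks in 14–16 h embryos, 50% in 2–3 h embryos and 8.16% in S2 cells, against 58.8%, 27% and 24.9% of the whole lists. Most of them were at hh and nkd. The other 6 genes held 2 of their 22 peaks in such pairs in 14–16 h embryos, 6 of 21 in 2–3 h embryos (all at ptc) and 0 of 31 in S2 cells. Such pairs remain after the authors removed peaks whose overlap with the other strand reached 90% of both. Any shared base counts in these shares. With an overlap of at least 50% of both peaks, the members were below their list in every type. The member shares were then 20% in 14–16 h embryos, 3.85% in 2–3 h embryos and 0% in S2 cells. Those of the whole lists were 44.5%, 11.4% and 9.89%.

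**Figure D5:**
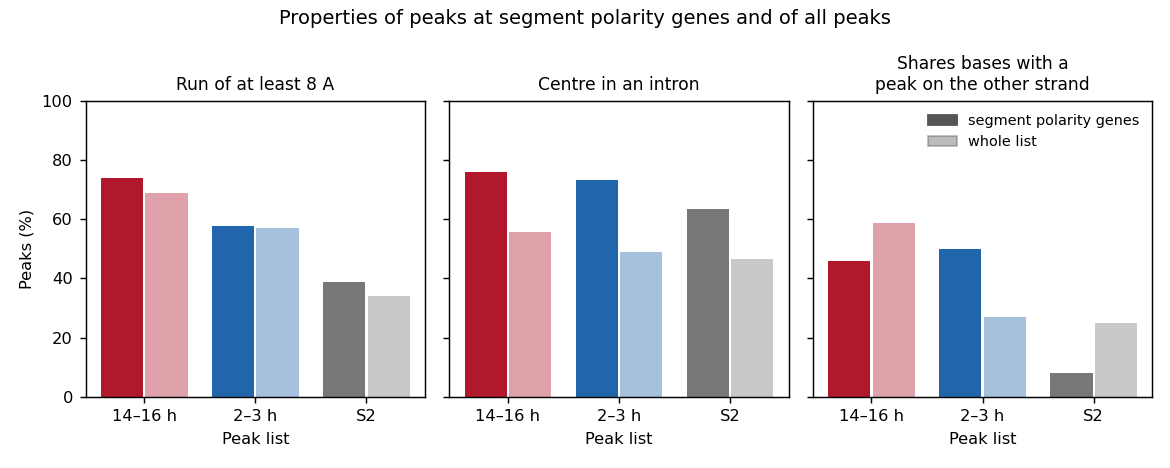
Percent of peaks with a run of at least 8 A, with the centre in an intron, or sharing bases with a peak on the other strand, for peaks at segment polarity genes (solid) and for the whole list (pale), by sample type. The intron bars of the members are taller in every list. The bars for the other strand, which count any shared base, are taller in 2–3 h embryos only.

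GAGAG, a word bound by the GAGA factor, and GCCAT, the core of the site of Pleiohomeotic, were searched on both strands in the 300 bp around each peak centre, since both proteins are known from Polycomb response elements. The end of the first word and the start of the second can overlap by 1 base. GAGAG was in 32.0% of the member windows in 14–16 h embryos, 36.5% in 2–3 h embryos and 46.9% in S2 cells, against 29.2%, 35.8% and 38.6% of all windows of that length in the lists. GCCAT was in 52.0%, 50% and 53.1%, against 43.2%, 43.0% and 46.0%. The genes differed more than the lists did. GAGAG was in 16 of 25 windows at ptc and 24 of 48 at nkd and in 0 of 12 at wg and 0 of 8 at en, while GCCAT was in 22 of 29 at hh and 6 of 8 at en and in 1 of 12 at wg. Overlapping peaks of different lists count as separate windows here, so the same bases enter more than once, and a match is no evidence of binding.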

How the data were processed

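The processed data are the peak lists deposited by the authors for 14–16 h embryos, 2–3 h embryos and S2 cells, 1 each. Per the study's methods, reads were shortened by 10 bp and placed on dm6 with Bowtie, and MACS2 was run by the authors for each strand, with both replicates as 1 input. The methods and results differ on whether RNase H1-treated samples alone or also inputs served as control. The deposited lists of 14–16 h embryos and S2 cells hold other totals than the study states, for a reason not given in the sources used here, and the lists were used as deposited. Each deposited row holds positions and a length in bp and no depth. Inputs and RNase H1-treated samples have no values of their own here.

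Starts were converted to count from 1. Genes came from the RefSeq annotation (FlyBase release 6.54) of the same assembly. Positions were given by distance along the gene, bases covered were counted once, and no test was run. All member peaks were counted. The genes, the pathway list, the tracts and the alternatives were chosen with earlier results of these data known. Genes named for likeness had the smallest Euclidean distance in 6 coverage values, among genes of at least 2 kb and 50 kb away. The interval functions were tested on simulated data. Python 3.11.15, NumPy 2.4.6 and matplotlib 3.10.9 were used.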

Additional observations from a re-analysis of the deposited data

How the results depend on the processing

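The alternatives changed the flank, the overlap rule, the joining of peaks, the tract lengths and the peaks kept, and 74 of 91 values stayed within 1.5 times the value given. With only the peaks wider than the median of their list, 25 peaks remained at the genes in 14–16 h embryos, 31 in 2–3 h embryos and 21 in S2 cells, with 5 regions in all 3 types and 21 in 1 type. With peaks joined only at 50% reciprocal overlap, 11 regions were in all 3 types. Fewer peaks or a stricter joining rule lower these counts by construction. The shares with a purine run depend most on the length asked. In 14–16 h embryos, 2–3 h embryos and S2 cells they were, at 12 purines, 56%, 69.2% and 73.5%. The whole lists had 61.1%, 68% and 64.4%. At 20 purines the member shares were 8%, 11.5% and 8.16%, against 11.7%, 13.9% and 10.6% of the whole lists. No paired analysis was possible because each list pools both replicates. Leaving out a replicate was not possible for the same reason, and depth, which limits what can be called in each list, is unknown.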

Other observations

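The wider Wingless and Hedgehog pathways were less uniform than the 8 genes. Of 41 other genes listed for these pathways and for segment polarity, 22 had an own-strand peak in 14–16 h embryos, 25 in 2–3 h embryos and 25 in S2 cells, or 53.7%, 61.0% and 61.0%, and 12 had none in any list. Among all annotated genes the shares were 21.8%, 23.4% and 26.9%. Of the 36 listed genes at least as long as gsb, 58.3%, 61.1% and 63.9% had one, against 46.9%, 47.7% and 50.6% of all genes of that length. The share ran highest among other segment polarity or neighbouring genes (8, 9 and 9 of 11) and lowest among the transducers (5, 5 and 6 of 13).

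The 18 genes with an own-strand peak in all 3 lists were the Wingless receptors fz and fz2 and co-receptor arr, the glypicans dally and dlp, the Wnt deacylase Notum, the kinases sgg, gish and Pka-C1, the ubiquitin ligase subunit slmb, the transcription factor pan, the Pax gene gsb-n, the Wnt genes Wnt4, Wnt5, Wnt6 and Wnt10, and the transcription factors mid and opa. The most own-strand bases in peaks were at fz (6079 bp), sgg (5874 bp) and dally (5160 bp) in 14–16 h embryos, at sgg (5265 bp), fz2 (4366 bp) and Notum (4278 bp) in 2–3 h embryos, and at Notum (7183 bp), gish (5234 bp) and fz (3805 bp) in S2 cells. These are long genes apart from Notum, which spans 9273 bp and was covered over most of that length in S2 cells. The Wnt genes Wnt4, Wnt6 and Wnt10 flank wg on the same arm.

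By the percent of the gene covered on either strand in the 3 lists, the gene most like wg was CG13995 (distance 1.96 percentage points over 6 values), most like hh was Trf2 (5.73), most like ptc was tnc (3.21), most like ci was gem (1.30), most like en was CG15580 (3.42), most like inv was sas (2.52) and most like nkd was Su(Tpl) (4.78). The distance was largest for hh and nkd among the 7 members with a peak.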
